A study of Mus musculus with 4 samples.

Results

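Open chromatin inside the transcribed parts of genes was examined in large peritoneal macrophages (LPMs), as the ATAC-seq regions that lie in coding exons, 5'-UTRs, 3'-UTRs, non-coding exons or at transcript ends and outside the promoter. ATAC-seq uses the Tn5 transposase to cut and tag open DNA, and each peak marks a stretch of frequent cutting. Merging the peaks of the 4 libraries wherever they shared 1 bp or more gave 70744 regions, 51742 of them called in 2 or more libraries. A region was kept as a member when its midpoint lay in one of these annotations of a RefSeq transcript (mm10), a transcript end reaching from 100 bp before to 1 kb after its last base, and not in the promoter-TSS window, which spans 1 kb before and 200 bp after a transcription start site (TSS). There were 3373 members, or 6.52% of the regions in 2 or more libraries. They comprised 1389 regions in coding exons, 428 in 5'-UTRs, 655 in 3'-UTRs, 192 in non-coding exons and 709 at transcript ends, and lay in 3005 genes. The remaining regions were 11487 in promoter-TSS, 20324 in introns and 16558 between genes.

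The study compared LPMs, sorted from the peritoneal cavity of 9-week-old C57BL/6 mice, of 2 genotypes that both carry floxed Rxra and Rxrb alleles. Rxrab fl/fl mice lack Cre and keep both receptors. LysMCre+ Rxrab fl/fl mice express Cre from the LysM locus, which is active in myeloid cells beyond LPMs too, and so delete the receptors in that lineage. Each genotype had 2 libraries of 40000 cells from library batch 1. They are numbered replicates 1 and 3 in the Cre-negative group and 1 and 2 in the Cre-positive group. The genotypes are written fl/fl and LysMCre+ hereafter, and a pair of values given for either is in the order of these replicates. The labels do not state that the libraries came from separate mice, and p-values therefore measure the spread between these libraries. According to the reporting summary, libraries that did not cluster with their group had been left out.

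An exon is the part of a gene kept in the mature RNA. Its coding part is translated, the 5'-UTR precedes it and takes part in the start of translation, and the 3'-UTR follows it and carries sites for microRNAs and RNA-binding proteins. Open exonic DNA is known where a promoter extends into the first exon, where an enhancer or an insulator bound by CTCF overlaps an exon, and at promoters of further transcripts. RXRα and RXRβ are nuclear receptors that bind DNA with a partner such as RAR, PPAR or LXR, at pairs of the letters AGGTCA.

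The libraries differed in the number of peaks, with 38048 and 16097 in fl/fl replicates 1 and 3, against 65421 and 55581 in LysMCre+ replicates 1 and 2. The low background of a library, a low quantile over its called peaks that follows its number of tags, was 1.97 and 1.06 tags per 200 bp in fl/fl. It was 1.33 and 1.08 in LysMCre+. The libraries thus ranked differently by background than by peaks. Replicate 1 of fl/fl had the highest background, and LysMCre+ replicate 1 the most peaks. The labelled cell type was examined at promoters. A region with its midpoint in promoter-TSS was called in all 4 libraries at Gata6, Timd4, Icam2 and Adgre1, which define LPMs, and at 11 of 24 LPM genes. The same held for 3 of 22 genes of small peritoneal and monocyte-derived macrophages, Irf4, H2-Aa and Lyz2. It held for none of the 10 B cell, 10 T cell, 8 mesothelial, 8 neutrophil and 8 eosinophil and mast cell genes. No library had such a region at 5 LPM genes (Prg4, Tgfb2, Cd9, Itga6 and Lrg1). The same was true of 3 genes of small peritoneal and monocyte-derived macrophages (Ccr2, Plac8 and Cd14). A call in all 4 libraries is limited by fl/fl replicate 3, the library with the fewest peaks. In 2 or more libraries, such a region was called at 17 LPM genes, 16 genes of small peritoneal and monocyte-derived macrophages, 2 B cell, 2 T cell, 3 neutrophil, 0 mesothelial and 0 eosinophil and mast cell genes. Ebf1 and Blnk of B cells, Tcf7 and Cd2 of T cells and S100a8 and Csf3r of neutrophils had one in 3 libraries, while Cd3e, Wt1 and Siglecf had none. The part of other cells in the results was not tested.

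Sequences at the summits of the strongest members called in all 4 libraries are shown because they carry the letters by which the classes of members are compared. Each is 30 bases of mm10, written 5' to 3' on the strand of the match, with the match in capitals. The class named is that of the member's midpoint, and where the match lies in another annotation, that is given in parentheses. Both strands were searched, and a region could match several sets of letters. The CTCF letters, the 12 shown in capitals with 4 of them free, are a short form of the element bound by the insulator protein CTCF and stood within 100 bp of the strongest summit in 9.25% of members and 6.39% of all regions. They were found at Ccna2 (cyclin A2), Ubr4 (an E3 ubiquitin ligase), Carns1 (carnosine synthase) and Csrp1 (a LIM domain protein).
Ccna2 5'-UTR, chr3:36572269-36572298, minus strand: acccagcgaCCAGGAGAAGGCgcttcaccc
Ubr4 coding exon (match in an intron), chr4:139430360-139430389, minus strand: gttgtagccCCATGAGACGGCtccagtctg
Carns1 coding exon, chr19:4169602-4169631, plus strand: gcttgccgtCCATGAGGTGGCgccctgagc
Csrp1 transcript end, chr1:135753081-135753110, minus strand: cctgcatggCCAGCAGAGGGCagcctgtct

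The AP-1 letters TGANTCA, bound by FOS and JUN family dimers, were found in 8.63% of members and in 12.9% of all regions. The match at Ubr4 lies 6 bp from the summit and is next to its CTCF match, in an intron beside the coding exon that holds the midpoint of the region.
Ubr4 coding exon (match in an intron), chr4:139430331-139430360, plus strand: agcctcttcagTGAGTCAgccagcacggcc
Syce1l transcript end, chr8:113656288-113656317, plus strand: aacttccctaaTGACTCAgttctgtgtggc
1700034H15Rik non-coding exon, chr1:191894633-191894662, plus strand: tggaatgaggaTGAGTCAcgcagagaacgt
Zswim1 5'-UTR, chr2:164822953-164822982, plus strand: ctcctttggtcTGAGTCAttgtgaagctgg

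The PU.1 letters GAGGAAGT, part of the element of the lineage-determining factor of macrophages, were found in 8.86% of members and in 9.59% of all regions. At Cnot10, a subunit of the CCR4-NOT deadenylase, the match lies 6 bp from the summit and within the promoter-TSS window, although the midpoint of the region is in the 5'-UTR.
Cnot10 5'-UTR (match in promoter-TSS), chr9:114640080-114640109, plus strand: ggccacgggctGAGGAAGTgacgaagttac
Syce1l transcript end, chr8:113656251-113656280, plus strand: gggtgtcagtgGAGGAAGTaccttgtcagt
Chd7 coding exon, chr4:8854224-8854253, plus strand: ggaggccccggGAGGAAGTgagagcgctgg
Fnbp1 transcript end, chr2:31052627-31052656, minus strand: atgtagaagatGAGGAAGTggaagcgacta

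The C/EBP letters TTGCNNAA, bound by a family of leucine zipper factors of the myeloid lineage, were found in 8.86% of members and in 11.2% of all regions. Among these genes, Atf6 encodes a factor of the unfolded protein response.
Zfp574 5'-UTR, chr7:25077067-25077096, plus strand: gcgagggaacaTTGCTAAAggattggctgg
Acbd4 5'-UTR, chr11:103102942-103102971, plus strand: gatagcattatTTGCATAAtcttgaaagag
Atf6 3'-UTR, chr1:170709799-170709828, plus strand: caagtctctgcTTGCCGAAgaggcagagag

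The nuclear receptor letters AGGTCA, a single element of the kind that RXR dimers bind in pairs, were found in 11.2% of members and in 13.0% of all regions. A single match does not make a site for a dimer. Of the genes shown, Xrcc1 encodes a scaffold of DNA repair and Mindy1 a deubiquitinase.
Xrcc1 5'-UTR (match in promoter-TSS), chr7:24546910-24546939, minus strand: cattggaccgtgAGGTCAccaaccaaacca
Lactb coding exon (match in an intron), chr9:66974930-66974959, minus strand: aagtagcagctgAGGTCAccggtcgcggag
Prr15l 3'-UTR, chr11:96935052-96935081, minus strand: agcagcacttctAGGTCAcagttttcacgc
Mindy1 coding exon (match in an intron), chr3:95293865-95293894, minus strand: cacggatcttagAGGTCAtttgttaccatg

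A last set of sequences shows the CTCF letters in 3'-UTR and transcript-end members that were called only in both LysMCre+ libraries, where the letters were most frequent. These 4 were picked after the values had been seen. They lie at Wipf2, which binds the actin regulator WASP, at the serine protease gene Prss53, at Rap1gap, which switches off the GTPase RAP1, and at the ribosomal protein gene Rps10.
Wipf2 3'-UTR, chr11:98900712-98900741, plus strand: ctctcacacCCATCAGACGGCaggctcttc
Prss53 3'-UTR, chr7:127886121-127886150, minus strand: gaggcaggtCCAACAGCTGGCtggctggct
Rap1gap transcript end, chr4:137730289-137730318, plus strand: cttgtatggCCACCAGGGGGCaccagagga
Rps10 transcript end, chr17:27629427-27629456, minus strand: gggacagggCCACTAGGTGGCagcaggtag

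The classes differed in how densely open regions filled them. There were 257 regions per Mb of 5'-UTR, 43.1 per Mb of coding exon, 36.4 per Mb of non-coding exon, 31.1 per Mb of transcript end and 27.2 per Mb of 3'-UTR. Promoter-TSS held 355 regions per Mb, introns 22.2 and intergenic sequence 11.6, against 21.0 over the autosomes. The 5'-UTR value was thus nearest to that of promoters, and the other 4 classes lay between introns and 5'-UTRs. The annotated sequence counted was that left after promoter-TSS windows and earlier classes had been removed.

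**Figure D1:**
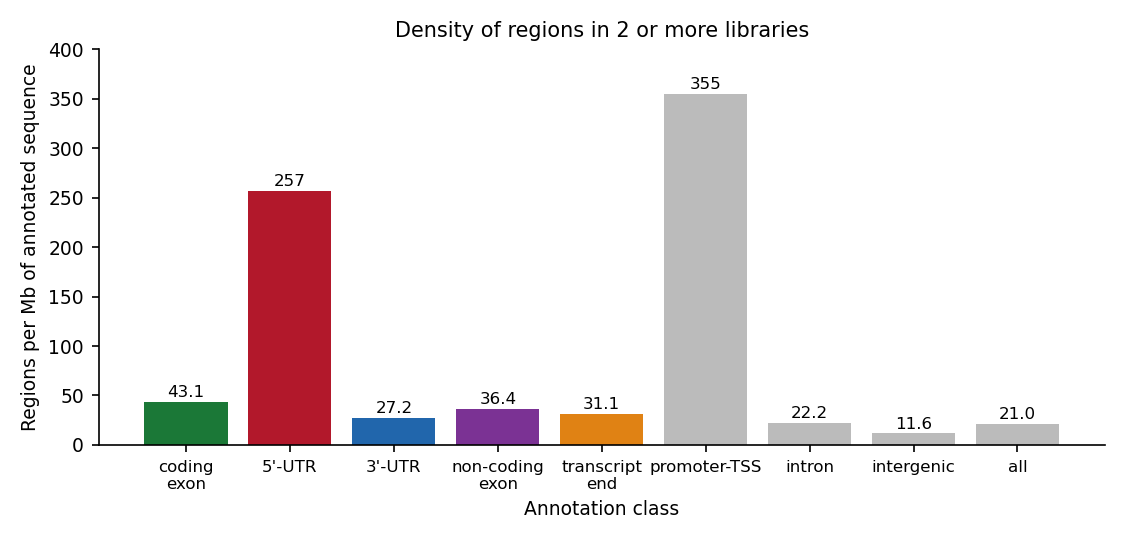
Regions called in 2 or more libraries per Mb of annotated sequence (bars, linear axis), for the 5 classes of members (coloured) and for promoter-TSS, intron, intergenic and all autosomal sequence (grey). The 5'-UTR bar (257) is the only member class near promoter-TSS (355), and coding exons (43.1) are followed by non-coding exons, transcript ends and 3'-UTRs.

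The members in 5'-UTRs lay close to promoters. Their median distance to the nearest TSS was 300 bp, 374 of 428 (87.4%) were within 1 kb, and 363 lay in the first exon. The strongest summit was inside the promoter-TSS window for 157 of them and in the 5'-UTR for 229. A TSS of the GENCODE annotation had its promoter window over 70.8% of them, although no TSS of a RefSeq NM or NR transcript did, and that of a predicted RefSeq transcript over 26.2%. Their median width was 722 bp and their median GC content 65.9%, with an observed to expected CpG ratio of 0.80. The corresponding values of promoter-TSS regions were 654 bp, 64.7% and 0.79. The edge of the rule ran through this group. Of 5'-UTR regions, 214 lay up to 100 bp beyond the limit of 200 bp downstream of a TSS and were kept, with a median fold enrichment of 8.63. Another 860 lay in the last 100 bp before the limit and were left out, with a median of 10.8. In coding exons these were 207 regions with a median of 9.86 and 425 with a median of 10.9. Fold enrichment is the tag pileup at the summit over the local background.

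Coding-exon members were of 2 kinds by position. Within 1 kb of a TSS lay 440 regions, with a median width of 743 bp, a GC content of 68.2% and a CpG ratio of 0.83. The 949 beyond 1 kb had a median width of 444 bp, a GC content of 58.2% and a CpG ratio of 0.47. Of all coding-exon members, 409 were in the first exon of the transcript, 692 in a middle exon and 288 in the last. The coding part of the exon that held the midpoint had a median length of 255 bp, against 126 bp over coding parts of RefSeq Select transcripts. A longer part can hold more midpoints wherever regions fall, so nothing about the members is read from this difference. The summit was in a coding exon in 964 of 1389, in an intron in 207 and in promoter-TSS in 169.

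The 3'-UTR members lay a median of 11.6 kb from the nearest TSS, 9 of 655 within 1 kb, and 642 were in the last exon. The 3'-UTR part that held them had a median length of 1944 bp, against 737 bp over 3'-UTR parts of RefSeq Select transcripts. Here too longer parts can hold more midpoints, and nothing is read from the difference. Transcript-end members lay a median of 505 bp past the last base and 7.68 kb from the nearest TSS. Of these 709, 22 were at the end of a microRNA precursor gene. Non-coding-exon members, in transcripts that encode no protein, lay a median of 3.76 kb from a TSS, and 48 of 192 were within 1 kb. Median GC content was 52.2% in 3'-UTRs and at transcript ends and 52.7% in non-coding exons, near the 50.7% of introns. The CpG ratio was 0.25, 0.24 and 0.36, against 0.23 in introns.

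**Figure D2:**
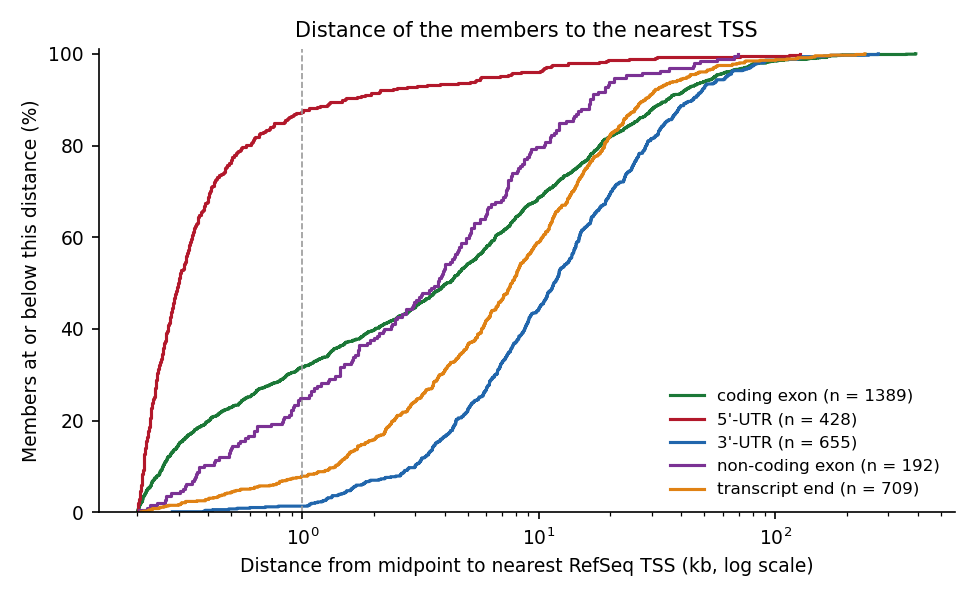
Cumulative share of members (%) by distance from the midpoint to the nearest RefSeq TSS (kb, log axis), 1 line per class, with a dashed line at 1 kb. The 5'-UTR line has reached 87.4% at 1 kb, coding exons 31.7%, non-coding exons 25%, transcript ends 7.90% and 3'-UTRs 1.37%.

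Among the strongest members, values were high in every library. The largest mean log2 fold enrichment of a member called in all 4 libraries was in the 5'-UTR of Ccna2, a cyclin of S phase and mitosis (exon 2 of 9, 877 bp downstream of the TSS, chr3:36571869-36572453). Its fold enrichment was 30.8 and 21.1 in fl/fl replicates 1 and 3, against 31.9 and 27.1 in LysMCre+ replicates 1 and 2. The groups overlapped, with the lowest value in fl/fl replicate 3, and overlapped also after each library had been centred on its median log2 fold enrichment. In the 5'-UTR of Cnot10 (chr9:114639508-114640401) the values were 26.5 and 18.4 against 28.2 and 24.0. In the 5'-UTR of Orc2, a subunit of the origin recognition complex (chr1:58504543-58505266), they were 27.2 and 15.6 against 28.1 and 24.4. At all 3 genes fl/fl replicate 3 was lowest, and the changes were −0.16, −0.13 and −0.02 in centred log2 fold enrichment (LysMCre+ minus fl/fl), each smaller than its standard error of 0.22, 0.22 and 0.21.

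The strongest coding-exon members were in exon 1 of Zfp446, a zinc finger gene, in exon 48 of 106 of Ubr4, and in exon 1 of Lactb, a mitochondrial serine protease. Fold enrichment at Zfp446 (chr7:12977655-12978454) was 23.7 and 18.1 in fl/fl and 22.9 and 20.3 in LysMCre+. At Lactb (chr9:66974730-66975602) it was 23.2 and 16.2 against 23.7 and 19.5. The Ubr4 region (chr4:139430108-139430560) lay 49.7 kb from the TSS, and differed from these 2 in its pattern, with 21.0 and 9.75 against 33.8 and 27.5. Both LysMCre+ libraries were above both fl/fl libraries there. The change in log2 fold enrichment was 0.72 with a standard error of 0.21 (adjusted p = 0.0902, limma with Benjamini-Hochberg adjustment), which did not pass the test. In the coding exons of Zfp446 and Lactb the groups overlapped, before and after centring.

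The strongest 3'-UTR members lay in Wdr48, a cofactor of the deubiquitinase USP1, in Vcl, which encodes the adhesion protein vinculin, and in 1700066B19Rik. Fold enrichment at Wdr48 (exon 19 of 19, chr9:119925159-119925691) was 27.9 and 15.9 in fl/fl and 30.3 and 23.9 in LysMCre+. At Vcl (exon 21 of 21, chr14:21032093-21032602) it was 26.2 and 17.7 against 22.2 and 18.7. At 1700066B19Rik (chr18:35730220-35730852) it was 20.7 and 12.7 against 27.9 and 23.7. The 2 groups overlapped at Wdr48. At Vcl they overlapped before centring, and after it both fl/fl libraries lay above both others (change −0.45, adjusted p = 0.248 in limma). They did not overlap at 1700066B19Rik, where the change of 0.30 had an adjusted p of 0.419 in limma.

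Strong members without a coding frame were in Bicdl1, 1810019N24Rik and 1700034H15Rik, and past the ends of Fgf11, Trf and Sfn. The Bicdl1 region, in an exon of a non-coding transcript of a dynein adaptor gene (chr5:115652654-115653375), had 26.9 and 19.9 in fl/fl and 26.5 and 23.6 in LysMCre+. The region 855 bp past the end of Trf, the transferrin gene (chr9:103207794-103208247), had 25.9 and 13.7 against 31.4 and 23.4. The region 724 bp past the end of Sfn, which encodes 14-3-3σ (chr4:133599541-133600123), had 26.8 and 13.4 against 28.2 and 22.4. The region past Fgf11 (chr11:69795187-69795729) had 25.0 and 17.7 against 25.4 and 25.0, and lay 479 bp from the TSS of the neighbouring gene Chrnb1. At these 4 members fl/fl replicate 3 was lowest and the genotypes overlapped, at Fgf11 by values of 25.0 in both. After centring they still overlapped at Bicdl1 and Fgf11, while both LysMCre+ libraries lay above at Trf and Sfn, by changes of 0.16 and 0.04 that are smaller than their standard errors. Fold enrichment was 23.1 and 14.1 against 21.2 and 18.8 at 1810019N24Rik, and 21.6 and 8.93 against 26.4 and 19.8 at 1700034H15Rik. The genotypes overlapped at both as deposited. Centring placed both fl/fl libraries above at 1810019N24Rik (change −0.22, adjusted p = 0.551 in limma). It placed both LysMCre+ libraries above at 1700034H15Rik (change 0.35, adjusted p = 0.348 in limma).

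Genes with several members were few. Of 3005 genes, 327 had 2 or more members and 5 had 4 or more. The largest number was 9 in Itsn1, an endocytic scaffold gene on chromosome 16, which was singled out after the counts had been seen. Its 26 regions in 2 or more libraries were 16 in introns, 6 in coding exons, 3 in the 3'-UTR and 1 at the promoter. Ank2, Arhgap27, Osbpl3 and Srcin1 had 4 members each.

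The first comparison between genotypes asked which members were called in which libraries. In fl/fl replicates 1 and 3, 62.7 and 22.6% of members were called, against 99.3 and 97.2% in LysMCre+ replicates 1 and 2. Over all regions in 2 or more libraries these shares were 68.8 and 29.7% against 99.0 and 96.5%, and in introns 61.9 and 19.7% against 98.8 and 96.1%, near those of the members. Of the 3373 members, 757 were called in all 4 libraries (22.4%, against 29.4% of all regions). Another 1257 were called only in both LysMCre+ libraries (37.3%, 95% Wilson interval 35.7 to 38.9), where the background over all regions was 31.2%. No member was called only in both fl/fl libraries (0 of 3373), where the background was 0.0618%. The largest other pattern, with 1240 members (36.8%, background 34.9%), was a call in every library but fl/fl replicate 3, the library with the fewest peaks. Wilson intervals cover counting error only.

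The share called only in LysMCre+ was 37.9% in coding exons (526 of 1389, interval 35.4 to 40.4), 24.3% in 5'-UTRs (104 of 428, 20.5 to 28.6), 39.8% in 3'-UTRs (261 of 655, 36.2 to 43.6), 40.1% in non-coding exons (77 of 192, 33.4 to 47.2) and 40.8% at transcript ends (289 of 709, 37.2 to 44.4). Introns had 38.0%, intergenic regions 36.3% and promoter-TSS 9.92%. Beside these classes, 5'-UTR members were called more often in all libraries, with 178 of 428 (41.6%) in all 4, against 17.1 to 20.9% in the other 4 classes and 62.1% in promoter-TSS. Within coding exons, the share called in all 4 was 34.8% within 1 kb of a TSS and 14.4% beyond.

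**Figure D3:**
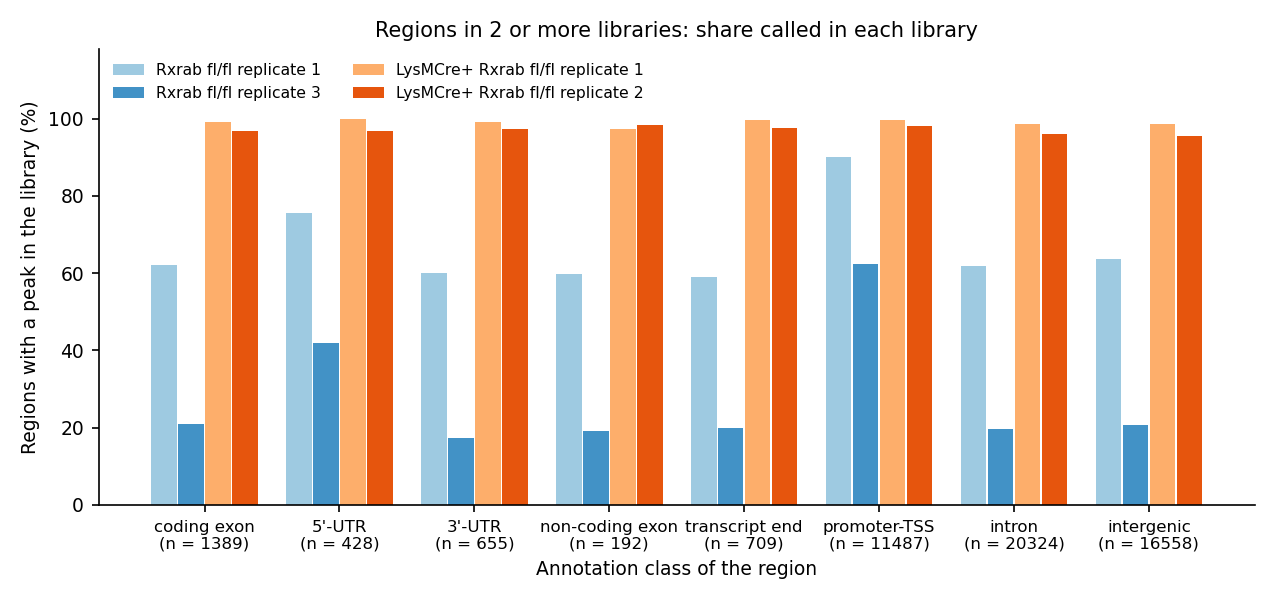
Share of regions (%) with a peak in each library, for the 5 classes of members and for promoter-TSS, intron and intergenic regions. Blue bars are fl/fl replicates 1 and 3, and orange bars are LysMCre+ replicates 1 and 2. Both orange bars are above 95% in every class, while fl/fl replicate 3 reaches 41.8% in 5'-UTRs and 17.3 to 21.0% in the other member classes.

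Members found only in LysMCre+ had lower values than shared ones. Their median fold enrichment was 6.45 and 5.47 in the 2 libraries, against 14.3 and 11.0 at members called in all 4. The strongest of them reached higher values. Past the end of Gsg1l, an auxiliary subunit of glutamate receptors (chr7:125877981-125878409), fold enrichment was 26.2 and 18.3 in LysMCre+ replicates 1 and 2. Past the end of Ulk2, an autophagy kinase, it was 17.6 and 15.4. In the last exon of Thsd4 it was 18 and 13.2, and in the 3'-UTR of Mettl6, a tRNA methyltransferase, 18.6 and 11.2. Coding-exon regions of Fads6, of a desaturase family, and Heatr5a had 16.7 and 14.0 and 21.2 and 9.70. The 5'-UTR regions of the homeobox gene Hoxa10 and of the receptor gene Ror1 had 14.2 and 10.8 and 12.5 and 9.26. In non-coding exons, Gm29642 had 13.7 and 15.9 and Speer5-ps1 had 15.5 and 12. No peak was called at any of these 10 in either fl/fl library. Speer5-ps1 belongs to a multigene family, and its value is uncertain where reads map to several copies.

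Peaks of each library were also placed one by one, so that the library was the unit of comparison. Of all peaks, 2.03 and 1.15% fell in coding exons in fl/fl, against 2.72 and 2.66% in LysMCre+. For 3'-UTRs the shares were 1.09 and 0.727% against 1.30 and 1.32%, and for transcript ends 1.16 and 0.950% against 1.42 and 1.47%. Non-coding exons took 0.342 and 0.304% against 0.387 and 0.376%, and 5'-UTRs 0.770 and 0.752% against 0.751 and 0.777%. Introns (35.4 and 25.7% against 40.9 and 39.9%) and intergenic sequence (29.8 and 22.1% against 33.0 and 31.9%) were ordered the same way, and promoter-TSS the opposite way (29.3 and 48.3% against 19.6 and 21.6%), so the order is not particular to members. In 4 of the 5 member classes both LysMCre+ libraries were above both fl/fl libraries, with p = 0.33 in the two-sided exact permutation test, the smallest p that 2 libraries per genotype allow. The 5'-UTR shares overlapped (exact permutation p = 1). The number of peaks moved with the genotype. When the 16097 peaks of lowest q value were taken from each library, coding exons held 1.42 and 1.15% against 2.21 and 2.12%, a mean difference of 0.88 percentage points, where it was 1.10 with all peaks. The difference at transcript ends was 0.093 percentage points in place of 0.39. In non-coding exons it was −0.012 in place of 0.058. The 5'-UTR difference was 0.16 in place of 0.0030, and the 2 genotypes then no longer overlapped.

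With the same number of peaks, 915 members were left, and 134 of them were called only in both LysMCre+ libraries (14.6%, background 9.92%) and 59 only in both fl/fl libraries (6.45%, background 9.16%). In coding exons 63 of 359 regions (17.5%) were called only in LysMCre+ and 11 (3.06%) only in fl/fl. In 3'-UTRs this was 32 and 14 of 157, at transcript ends 20 and 16 of 172, in non-coding exons 8 and 7 of 48, and in 5'-UTRs 11 and 11 of 179. In introns it was 794 and 448 of 4971, in intergenic regions 585 and 489 of 4064, and in promoter-TSS 230 and 614 of 7626. Coding exons thus had the same order of the 2 genotypes as introns and intergenic regions, promoter-TSS the opposite one, and 5'-UTRs equal numbers. No test was made over regions, which are not replicates.

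The second comparison asked whether fold enrichment differed at the 757 members called in all 4 libraries. Values were taken as log2, centred on the median of each library, tested in limma and adjusted over all 15199 regions in all 4 libraries. The limma test called 0 of 757 members in either direction, at a log2 change past 1 and a Benjamini-Hochberg p under 0.05. The background was 0.0461% higher in fl/fl and 0.0395% higher in LysMCre+. At an unadjusted p under 0.05, 159 members passed, 84 higher in fl/fl and 75 higher in LysMCre+, against a background of 22% in both directions together. The lowest adjusted p of a member was 0.0562. With a mean-variance trend in limma, 3 members were called higher in fl/fl, the 5'-UTRs of Cln8, Prune1 and Ddx17, and 2 higher in LysMCre+, the ends of Haao and Smtnl1 (backgrounds 0.5% and 0.401%). The median change of the members was −0.03, against −0.09 over all regions. By class it was 0.02 in coding exons, −0.14 in 5'-UTRs, 0.00 in 3'-UTRs, −0.08 in non-coding exons and −0.02 at transcript ends, and −0.18 in promoter-TSS. After centring, both fl/fl libraries lay above both others in 200 members (background 32.9%), and both LysMCre+ libraries in 194 (background 22.3%). The median standard error was 0.22, and without the trend changes as large as −1.18 (Cln8) and 1.10 (Haao) did not pass the test.

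The largest changes towards LysMCre+ were past transcript ends. The region 561 bp past the end of Haao, an enzyme of tryptophan breakdown (chr17:83830544-83831042), had a fold enrichment of 11.7 and 4.85 in fl/fl replicates 1 and 3 and of 23.1 and 18.9 in LysMCre+ replicates 1 and 2. Both LysMCre+ libraries were above both others, with a change of 1.10 (standard error 0.21, adjusted p = 0.0562 in limma). The region 139 bp past the end of Smtnl1, a smoothelin-like gene (chr2:84810833-84811241), had 6.03 and 3.88 against 17.2 and 10.3, a change of 1.09 (standard error 0.23, adjusted p = 0.0621 in limma). In exon 5 of Rtbdn, which encodes a riboflavin-binding protein, values were 8.75 and 5.82 against 20.3 and 16.3 (change 0.98). In exon 4 of the myosin gene Myh7b they were 12.4 and 4.66 against 19.5 and 16 (change 0.84). The 3'-UTR of Plxnb1, a semaphorin receptor, changed by 0.85, from 6.56 and 4.85 to 18.8 and 9.18, and that of Stimate, a partner of the calcium sensor STIM1, by 0.85, from 9.35 and 4.84 to 16.4 and 15. The 5'-UTRs of Plcb1, a phospholipase C, and Pam, a peptide-amidating enzyme, changed by 0.74 and 0.71, and the non-coding exons of Gm46567 and A630077J23Rik by 0.54 and 0.48. After centring, both LysMCre+ libraries lay above both others at these 10, as the rule that named them requires. The values as deposited overlapped at Plcb1 and A630077J23Rik. None of the 10 passed the test on fold enrichment without the trend. Haao and Smtnl1 passed with it (adjusted p = 0.00193 and 0.0105 in limma). On the summit pileup, the number of tags at the summit, 4 of the 10 passed, with changes of 1.64 at Haao, 1.29 at Stimate, 1.12 at Rtbdn and 1.11 at Plxnb1 (adjusted p = 0.00736, 0.0120, 0.0326 and 0.04996 in limma). The pileup change at Gm46567 was −0.0043, the only negative one of the 10.

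The largest changes towards fl/fl were in 5'-UTRs and past transcript ends. Of the members named here, Cln8, Prune1 and Uxs1 lay 216, 224 and 211 bp downstream of a TSS, just past the promoter-TSS window. Plcb1, named above towards LysMCre+, lay at 211 bp. In exon 1 of Cln8, which encodes a protein of the endoplasmic reticulum (chr8:14888364-14889139), fold enrichment was 9.77 and 10.6 in fl/fl replicates 1 and 3, against 6.24 and 5.39 in LysMCre+ replicates 1 and 2. The groups did not overlap, and the change was −1.18 (standard error 0.29, adjusted p = 0.0720 in limma). In the 5'-UTR of Prune1 (chr3:95281672-95282032) the values were 11.5 and 7.44 against 7.84 and 4.27, a change of −1.04 (standard error 0.24, adjusted p = 0.0649 in limma). The region 949 bp past the end of Klf2, a transcription factor of macrophages and T cells (chr8:72322343-72322862), had 3.39 and 3.21 against 2.55 and 1.49. The change was −1.13 (standard error 0.28, adjusted p = 0.0720 in limma). With a mean-variance trend, the standard error at Klf2 was 1.27, larger than the change (adjusted p = 0.615 in limma). The summit pileup at Klf2 was 172 and 38 against 297 and 197, and changed by 0.70 in the opposite direction. The region 480 bp past Ftl1, the ferritin light chain gene, had 7.91 and 5.63 against 4.86 and 4.14 (change −0.94). Other changes were found in exon 1 of Uxs1, which makes UDP-xylose (−0.88), in 1810010H24Rik (−0.87), in the 3'-UTRs of Pgghg (−0.96) and 1700008O03Rik (−0.81), and in the non-coding exons of Gm10369 (−0.92) and 1600002D24Rik (−0.76). After centring, both fl/fl libraries lay above both others at these 10, again by the rule, while the values as deposited overlapped at Prune1, Uxs1, 1810010H24Rik, Pgghg, 1700008O03Rik and 1600002D24Rik. None passed the test on fold enrichment without the trend, and Cln8 and Prune1 passed with it (adjusted p = 0.0105 and 0.0231 in limma). On the pileup 3 of the 10 passed, with changes of −1.45 at 1600002D24Rik, −1.41 at Uxs1 and −1.18 at Cln8 (adjusted p = 0.00911, 0.0110 and 0.0149 in limma).

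Calls depended on the measure. On the log2 summit pileup in place of the fold enrichment, limma called 28 of 756 members higher in fl/fl (background 5.47%) and 24 higher in LysMCre+ (background 2.51%). At an unadjusted p under 0.05 it passed 245 members (background 33.2%). By class, the adjusted calls were 11 and 9 of 290 in coding exons, 7 and 3 of 178 in 5'-UTRs, 4 and 5 of 112 in 3'-UTRs, 2 and 0 of 36 in non-coding exons, and 4 and 7 of 140 at transcript ends. Members called on the pileup are named here after their values had been seen. Towards fl/fl, the largest change was in exon 1 of Ddx17, an RNA helicase gene, with a pileup of 278 and 47 against 91 and 55. Scaled to the library median, this was a log2 change of −1.57 (adjusted p = 0.00761 in limma), and it was −1.01 in fold enrichment. Past the end of Dcps, a scavenger decapping enzyme, the pileup was 148 and 25 against 43 and 36 (−1.51). In the 3'-UTR of Mpeg1, which encodes the pore-forming perforin-2 of macrophages, it was 71 and 20 against 28 and 31 (−1.24), and in exon 1 of the nucleophosmin gene Npm1 124 and 29 against 68 and 39 (−1.10). Unscaled, fl/fl replicate 1 was the highest and replicate 3 the lowest of the 4 libraries at Ddx17, Dcps, Mpeg1 and Npm1, and the direction given is that after scaling. The Ddx17 and Npm1 regions lay 208 and 215 bp downstream of a TSS, just past the promoter-TSS window.

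Towards LysMCre+, the pileup past the end of Arap1, a regulator of small GTPases, was 52 and 18 in fl/fl and 222 and 181 in LysMCre+, a log2 change of 1.83 (adjusted p = 0.00746 in limma). Its fold enrichment was 9.67 and 6.09 against 11.2 and 8.63, and changed by −0.01. In exon 4 of Xrcc3, a gene of homologous recombination, the pileup was 135 and 31 against 477 and 342 (1.76), and fold enrichment 4.73 and 4.22 against 6.72 and 5.97 (0.14). At Haao the pileup was 45 and 9 against 142 and 94 (1.64). In exon 3 of Rai1, a gene induced by retinoic acid, it was 60 and 17 against 215 and 135 (1.53), and in exon 9 of the kinase gene Aatk 105 and 15 against 244 and 145 (1.36). At Arap1 and Xrcc3 the ratio of the pileup to the local background thus changed by less than its standard error (0.21 and 0.26).

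**Figure D4:**
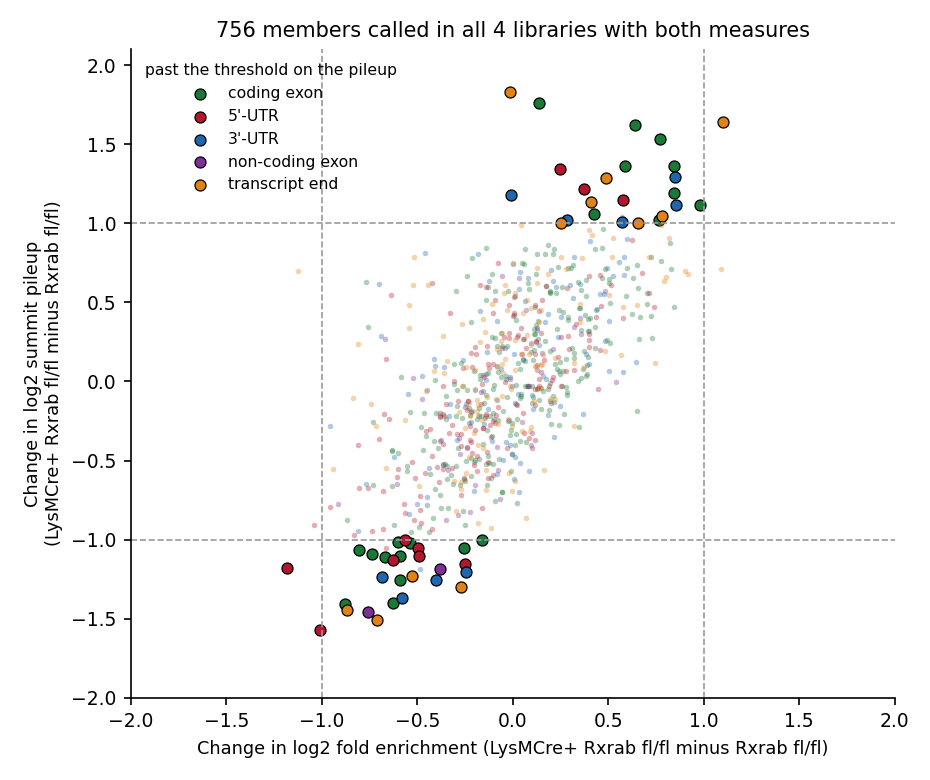
Change in log2 fold enrichment (horizontal) against change in log2 summit pileup (vertical), each LysMCre+ minus fl/fl and centred per library, for 756 members called in all 4 libraries, coloured by class. Large outlined points are the 52 members past the limma threshold on the pileup (28 below −1 and 24 above 1), and dashed lines mark a change of 1 in either direction. No member passed the threshold on fold enrichment without a mean-variance trend.

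Motif letters set the classes apart from each other. The CTCF letters were found in 15.1% of transcript-end members (95% Wilson interval 12.6 to 17.9), in 11.8% of 3'-UTR members (9.51 to 14.4), in 7.49% of coding-exon members (6.22 to 8.99), in 5.73% of non-coding-exon members (3.23 to 9.97) and in 3.04% of 5'-UTR members (1.78 to 5.13). The shares were 8.59% in intergenic regions, 6.08% in introns and 2.91% in promoter-TSS. Transcript ends and 3'-UTRs thus had more of these letters than introns, by more than the counting error. The AP-1 letters were less frequent in coding exons (6.26%) than in introns (15.6%), and were found in 11.4% of transcript-end, 11.5% of 3'-UTR, 14.1% of non-coding-exon and 4.91% of 5'-UTR members. The KLF letters CCCCNCCC were found in 22.2% of 5'-UTR members and in 15.8% of coding-exon members, against 37.4% of promoter-TSS regions and 12.5% of intron regions. In coding exons they were found in 25% of members within 1 kb of a TSS and in 11.5% of those beyond. The PU.1 letters showed the opposite order there, with 3.41 and 11.6%. The nuclear receptor letters AGGTCA were found in 14.5% of 3'-UTR and 14.2% of transcript-end members, against 14.2% of intron regions, and in 8.64% of coding-exon and 8.88% of 5'-UTR members.

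The CTCF letters were also counted by the libraries in which a member was called. Regions are not replicates of a genotype, and these groups follow from the calls themselves. No difference between genotypes is therefore read from the shares. At transcript ends they were found in 7 of 140 members called in all 4 libraries (5%, interval 2.44 to 9.96), in 38 of 260 called in all but fl/fl replicate 3 (14.6%, 10.8 to 19.4) and in 61 of 289 called only in LysMCre+ (21.1%, 16.8 to 26.2). In 3'-UTRs the shares were 4.46, 10 and 17.2% in the same order. In coding exons they were 5.17, 7.92 and 8.17%, with overlapping intervals. Over all regions they were 2.49, 6.57 and 10.2%. Members in all 4 libraries also had the higher fold enrichment, with a median of 14.3 against 6.45 in LysMCre+ replicate 1, and the part of peak height or depth in this order was not tested.

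**Figure D5:**
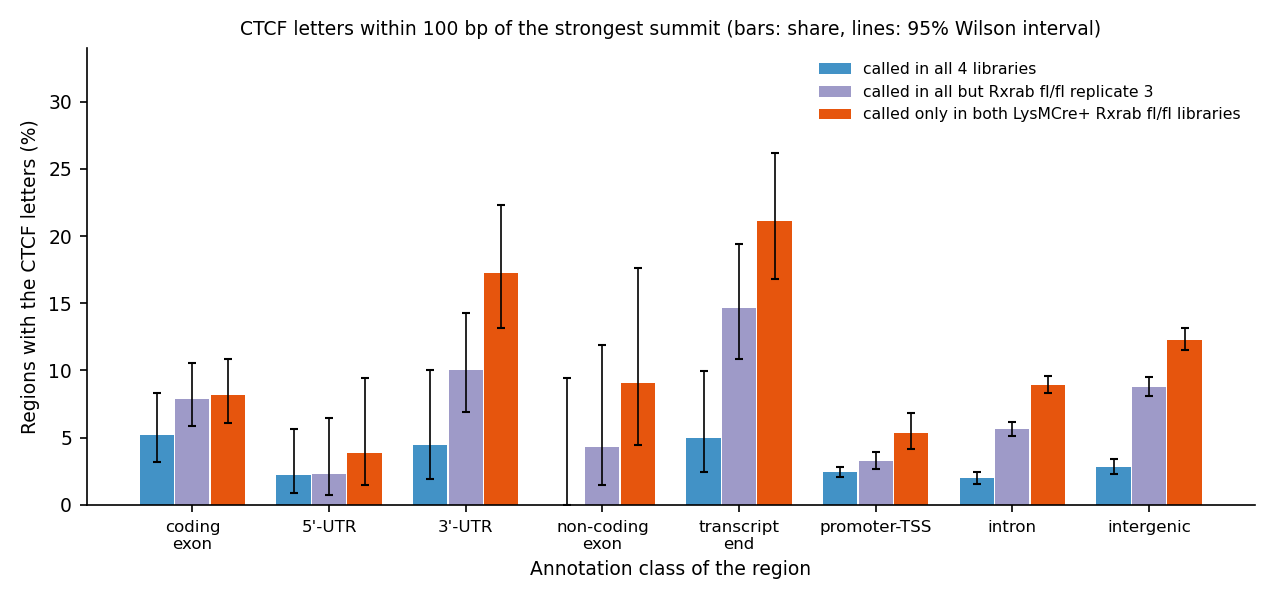
Share of regions (%) with the CTCF letters within 100 bp of the strongest summit, by annotation class and by the libraries in which the region was called; lines are 95% Wilson intervals, which cover counting error only. At transcript ends the share goes from 5% in regions called in all 4 libraries to 21.1% in those called only in LysMCre+, and in 5'-UTRs the 3 intervals overlap.

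Members were then looked up in lists of genes that fit the tissue. For each count in a list, the shares to set beside it are 29.4% of all regions and 22.4% of members called in all 4 libraries, and 31.2% of all regions and 37.3% of members called only in LysMCre+. The lists hold few members, and none of their counts is read as a departure from these shares. Of 25 LPM genes, 8 had a member, 1 each. At Gata6, the transcription factor that sets the LPM identity, the 3'-UTR (chr18:11084364-11084792) had a fold enrichment of 6.07 in fl/fl replicate 1, while the LysMCre+ libraries had 4.30 and 6.90, with no call in fl/fl replicate 3. The member in exon 1 of Itga6, the integrin α6 gene (chr2:71786767-71787551), was called in all 4 libraries with 11.4 and 5.47 in fl/fl and 8.56 and 9.95 in LysMCre+, a change of −0.14. The 5'-UTR of Tgfb2, a TGF-β ligand (chr1:186705154-186706297), had 9.77 and 3.87 against 9.31 and 5.85, a change of −0.11. No region at either gene had its midpoint in promoter-TSS, and these members lie 220 and 263 bp downstream of the TSS. In the 3'-UTR of Naip1, an inflammasome receptor with close paralogs, fold enrichment was 8.02 in fl/fl replicate 1 and 11.6 and 6.61 in LysMCre+, and in that of Ccnd1, cyclin D1, it was 5.36 against 14.3 and 7.91. Neither was called in fl/fl replicate 3. The region past the end of the coagulation factor gene F10 was called only in LysMCre+, with 10.3 and 4.64. Of the 8 members, 2 were called in all 4 libraries and 0 passed the limma threshold.

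Of 22 genes of small peritoneal and monocyte-derived macrophages, 6 had 7 members. The 3'-UTR of the fractalkine receptor gene Cx3cr1 (chr9:120049376-120049782) had 16.6 in fl/fl replicate 1 and 13.0 and 14.1 in LysMCre+. The 5'-UTR of Cd14, a co-receptor for lipopolysaccharide (chr18:36726201-36726964), was the member called in all 4 libraries, with 12.4 and 9.21 against 12.1 and 10.8 and a change of −0.27. Exon 8 of the integrin gene Itgax had 8.02 against 14.0 and 8.28, and the end of the MHC class II gene H2-Eb1 had 10.8 against 8.13 and 5.53, neither with a peak in fl/fl replicate 3. Irf4, a transcription factor gene, had a member in its 3'-UTR with 4.72 in fl/fl replicate 1 and 7.73 and 6.08 in LysMCre+, and another past its end that was called only in LysMCre+, with 6.25 and 5.82. A coding exon of H2-Ab1 was also called only in LysMCre+, with 3.79 and 3.44.

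Of 62 transcription factor genes, 16 had a member each, of which 5 were called in all 4 libraries. Exon 6 of Pparg, an RXR partner (chr6:115462854-115463353), was the strongest, with 19.1 and 6.31 in fl/fl and 22.1 and 18 in LysMCre+. The groups overlapped before centring and not after it, and the change of 0.49 had a standard error of 0.24 and an adjusted p of 0.250 in limma. Exon 20 of Stat3 had 7.25 in fl/fl replicate 1 against 12.4 and 8.02. The 5'-UTR of Nfkb1, which encodes an NF-κB subunit, had 11.1 and 7.19 against 10.5 and 6.5, a change of −0.49 (adjusted p = 0.226 in limma). Both fl/fl libraries lay above both others there after centring. The 5'-UTR of Jund had 6.34 and 6.40 against 5.51 and 4.87, a change of −0.67 (adjusted p = 0.189 in limma). At Jund both fl/fl libraries lay above both others before and after centring. Exon 4 of Relb was called only in LysMCre+, with 9.75 and 5.88. Of the targeted genes, Rxra had 1 member, 283 bp past its end (chr2:27763456-27763747), called only in LysMCre+ with 4.32 and 3.53. Rxrb had none. The peaks at these genes were not used to examine the deletion of the floxed exons. Of the 16 members, 7 were at transcript ends, among them those of Jun, Junb, Egr1, Klf2 and Klf6, whose fold enrichment was 1.49 to 4.60 where called.

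Of 31 lipid and cholesterol genes, 8 had 9 members. The 5'-UTR of Fasn, the fatty acid synthase gene (chr11:120823617-120824946), was called in all 4 libraries with 12.2 and 8.46 against 11.2 and 9.09, a change of −0.38. Both fl/fl libraries lay above both others at Fasn after centring. Exon 5 of the scavenger receptor gene Msr1 had 8.78 against 9.80 and 10.4, and the 5'-UTR of the desaturase gene Scd2 6.79 against 10.1 and 8.41, without a call in fl/fl replicate 3. The 3'-UTR of Srebf1, which encodes a master regulator of lipid synthesis, was called only in LysMCre+, with 9.26 and 8.44. Of 34 lysosome and endosome genes, 4 had 6 members. Exon 2 of Gusb, β-glucuronidase, had 10.4 and 8.77 against 13.0 and 10.5, a change of −0.08. Exon 1 of Hexa, a hexosaminidase subunit, had 4.88 and 5.43 against 6.94 and 6.59, a change of 0.03 (standard error 0.30). In these exons of Gusb and Hexa both LysMCre+ libraries lay above both others as deposited, and the genotypes overlapped after centring. The end of Hexa had 7.64 against 9.17 and 7.68, and exon 22 of Atp6v0a1, a proton pump subunit, was called only in LysMCre+ with 10.0 and 8.31.

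Of 37 actin cytoskeleton and adhesion genes, 10 had 12 members, of which 5 were called in all 4 libraries and 6 only in LysMCre+. Beside Vcl, strong members were exon 13 of Plec, plectin, with 11.9 and 5.84 against 12.5 and 11.0, and exon 21 of Actn1, α-actinin-1, with 8.96 and 4.17 against 13.8 and 11.1. The changes were 0.13 and 0.65. At Actn1 both LysMCre+ libraries were above both others (adjusted p = 0.108 in limma), and on the pileup the change was −0.19. Only after centring did both LysMCre+ libraries lie above at Plec, and both fl/fl libraries at Vasp (change −0.54). Markers of other cell types held 3 members. The coding exons of Cd22, of B cells, and Lrrn4, of mesothelium, were called only in LysMCre+, with 11.1 and 7.83, and 9.63 and 8.33. The 3'-UTR of the T cell gene Cd3d was called in all 4 libraries, with 20.8 and 9.60 against 24.6 and 18.2. None of these 3 genes had a promoter-TSS region in any library. Over all of these lists, 0 of 61 members were called only in fl/fl (background 0.0618%). The 17 members called in all 4 libraries could be tested in limma, and 0 of them passed on fold enrichment (backgrounds 0.0461% and 0.0395%) or on the pileup (5.47% and 2.51%). At an unadjusted p under 0.05, 5 and 6 of the 17 passed in limma (backgrounds 22% and 33.2%).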

How the data were processed

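ATAC-seq was performed on sorted LPMs in 4 libraries, 2 per genotype. Per the labels and methods, the authors trimmed reads with cutadapt, aligned them to mm10 with Bowtie2, removed duplicates, low-quality, mitochondrial and sex chromosome reads and blacklisted regions, and called peaks per library with MACS2 2.1.1 (q under 0.05, extension 200 bp). The Tn5 offset of reads is not given in the sources used here. The deposited peak files give the fold enrichment at the summit (a ratio to local background), −log10 p and −log10 q values, and a score, which was not used. They hold no read counts, so the authors' count test (DiffBind, edgeR) was not repeated. They give no read totals, so depth is seen here only through the number of peaks, the pileup and the low background. These do not rank the libraries alike.

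Peaks were merged where they shared 1 bp and annotated with 43783 RefSeq NM and NR transcripts of 19 autosomes (GRCm38, mm10), in the order promoter-TSS, coding exon, 5'-UTR, 3'-UTR, non-coding exon, transcript end. GENCODE start sites were used only for counts. log2 fold enrichment, centred on the median of each library, was tested with limma 3.58.1 in R 4.3.3 over all 15199 regions in all 4 libraries, with Benjamini-Hochberg adjustment, at an adjusted p under 0.05 and a log2 change past 1. Summit pileup was solved from p and fold enrichment, the latter taken as a ratio with a pseudocount of 1. A whole number was found for 98.2 to 100% of peaks (the −log10 p of the deposited file met within a tolerance of 0.001 of its value). The pileup was tested as log2 with no pseudocount. Shares of peaks were compared with a two-sided exact permutation test. The scripts ran in Python 3.11.15 with pysam 0.24.0, pandas 2.3.3, scipy 1.17.1 and numpy 2.4.6. The tests were tried on simulated data. Motif letters were sought on both strands within 100 bp of the strongest summit, and sequences are from the RefSeq genome of mm10.

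Named per class were the 3 members of largest mean log2 fold enrichment in all 4 libraries, the 2 of largest change in each direction among those in which both libraries of 1 genotype lay above both others after centring, and the 2 strongest called only in 1 genotype. Of each gene list, the 4 strongest members were named, except items not reported here, and further list members after their values had been seen. Members and lists were chosen with earlier results of these data known. Alternatives were the number of peaks, the q threshold, the point that places a region, the order of classes, the TSS window and set, the scaling, the measure and each library left out.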

Additional observations from a re-analysis of the deposited data

How the results depend on the processing

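The q threshold of 0.01, the order of classes and the predicted start sites left the counts of members within 1.5 times of those given. With a promoter window to 1 kb downstream, 54 members remained in 5'-UTRs in place of 428. Leaving out each library gave 1960 to 3372 members in all, with 772 to 1388 in coding exons, 380 to 655 in 3'-UTRs, 110 to 192 in non-coding exons and 404 to 708 at transcript ends. The lowest counts came without LysMCre+ replicate 1 (1960) or replicate 2 (2054).

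The difference in the share of peaks in 5'-UTRs (0.0030 percentage points) turned to −0.065 when the summit placed a peak, to −0.013 with the wider promoter window, and lay between −0.010 and 0.016 when each library was left out. In non-coding exons it turned to −0.012 with the same number of peaks per library. The other 3 classes kept their direction in each alternative run, but not their size. Without fl/fl replicate 3 the difference was 0.66 in coding exons (1.10 with it) and 0.22 in 3'-UTRs (0.40 with it). With the same number of peaks it was 0.20 in 3'-UTRs and 0.093 at transcript ends (0.39 with all peaks).

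Members called only in fl/fl numbered 59 with the same number of peaks per library and 6 when each peak was shortened to within 100 bp of its summit. They numbered 1 without LysMCre+ replicate 1 and 2 without LysMCre+ replicate 2. With an fl/fl library left out, a call in the remaining fl/fl library alone was enough. The counts, 7 without replicate 1 and 48 without replicate 3, are then of regions in 1 library and not of members. Members called only in LysMCre+ numbered 134 with the same number of peaks, 2511 without fl/fl replicate 1 and 1258 without fl/fl replicate 3. Without LysMCre+ replicate 1 or 2 the counts were 1667 and 2224, again of regions in the 1 library left and not of members. Both numbers thus changed with the number of peaks taken.

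In limma, the summit pileup called 28 members higher in fl/fl and 24 higher in LysMCre+, and a mean-variance trend 3 and 2 (Cln8, Prune1 and Ddx17, and Haao and Smtnl1). Leaving out each library gave 0 to 20 and 0 to 8, with the most without fl/fl replicate 1 (20 and 8 of 757, where 540 and 244 of all 15199 regions were called) and 0 and 4 without replicate 3 (40 and 96 of all regions). These fits take the lone library to vary like the other genotype. Quantile normalization, no centring, regions in 2 or more libraries, the stricter q and no threshold on the change called 0 members in either direction. The median change (−0.03) was 0.0090 on the pileup, 0.028 with quantile normalization, 0.34 without centring, 0.068 over regions in 2 or more libraries, and −0.11 to 0.039 when each library was left out. Without centring the median of all regions was 0.28 in place of −0.09. The causes were not tested.

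No paired analysis was possible because the genotypes share only replicate number 1. With 2 libraries per genotype, the exact permutation test cannot give a p under 0.33.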
